A study of Mus musculus with 3 samples.

Results

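The 9 genes described here encode the coagulation and fibrinolysis proteins that vessel walls make themselves. They were *Vwf*, *F8*, *F3*, *Thbd*, *Procr*, *Pros1*, *Tfpi*, *Plat* and *Anxa2*. They were listed by name for their known function, with earlier results of these data known, out of 29905 genes that could be named. The study sequenced polyadenylated RNA of purified brain vessels from male mice aged 3 months, in 3 libraries that each pooled the vessels of 3 animals. The C57BL6 WT and C57BL6-BALB/c WT libraries came from wild-type mice of those backgrounds. The Cx30-/- library came from mice in which Cx30 (*Gjb6*), a gap junction protein of astrocytes, was deleted in the whole animal. For this library the labels give a C57BL6 background and the study's methods give a mixed C57BL6/Balbc one, so the WT library that matches it in background could not be settled. The purified vessels are a mixture of endothelial cells, vascular smooth muscle cells and pericytes, and remnants of other cells.

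Blood clotting is kept in balance by proteins on and in the endothelium. Tissue factor (*F3*) starts coagulation when blood meets the cells that surround a vessel, and in the brain it is made mainly by astrocytes and other perivascular cells. Von Willebrand factor (*Vwf*) tethers platelets and carries coagulation factor VIII (*F8*). Thrombomodulin (*Thbd*) and the endothelial protein C receptor (*Procr*) turn thrombin into an activator of protein C, with protein S (*Pros1*) as its cofactor, while tissue factor pathway inhibitor (*Tfpi*) blocks the tissue factor complex. Tissue plasminogen activator (*Plat*) and annexin A2 (*Anxa2*), its receptor together with S100A10, start the dissolution of fibrin.

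Each group held 1 library. A difference between libraries could therefore not be set against a spread between replicates, and the 95% intervals given here are exact binomial intervals of the raw counts that cover the sampling of reads only. Counts over all transcripts summed to between 50375426 and 60725557 per library, and normalised counts are raw counts divided by a size factor per library (0.9258 to 1.1452). The deleted gene, *Gjb6*, had normalised counts of 2531 in C57BL6 WT, 2426 in C57BL6-BALB/c WT and 100.7 in Cx30-/-. This was 25.1-fold and 24.1-fold lower in the Cx30-/- library than in the C57BL6 WT and C57BL6-BALB/c WT libraries. All 14 genes of a list of endothelial markers were detected in every library, so the labelled tissue was present in each, but not to the same degree. Their summed normalised count was 130682 in C57BL6 WT, 78532 in C57BL6-BALB/c WT and 152486 in Cx30-/-. In such a mixture, fewer cells of a type and less RNA per cell cannot be told apart.

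All 9 genes were detected in all 3 libraries and passed the minimum of 50 normalised counts in at least 1 library of each comparison. Their levels, given as normalised counts per kb of transcript so that genes can be compared with each other, spanned from *Vwf* to *F8* in the plot of levels by library. *Vwf* had the highest mean level, at 2356 per kb, above 97.9% of the 14971 genes with at least 50 normalised counts in at least 1 library. *Anxa2* at 2070 per kb, *Plat* at 2048 per kb and *Thbd* at 1689 per kb followed. The libraries did not order these 4 genes alike: *Plat* was first in C57BL6 WT, at 2725 per kb, and the last of the 4 in C57BL6-BALB/c WT, at 1176 per kb. A second tier held *F3* at 671 per kb and *Pros1* at 645 per kb, whose order was reversed in the Cx30-/- library (659 per kb for *F3* and 803 per kb for *Pros1*). *Procr* at 231 per kb and *Tfpi* at 165 per kb had 47.2% and 36.3% of these 14971 genes below them, and kept their order in each library. *F8* was the lowest of the 9, at 5.74 per kb, with 0.0534% of the same 14971 genes below it. Genes under that minimum were left out of this ranking. *F8* was itself near it, at 43.7 to 67.0 normalised counts on a transcript of 9784 bases.

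**Figure D1:**
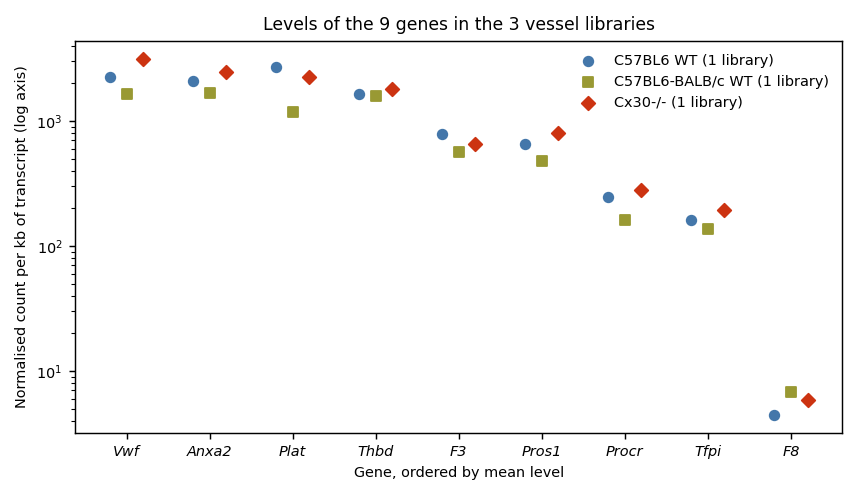
Normalised count per kb of transcript (log axis) of the 9 genes in the C57BL6 WT, C57BL6-BALB/c WT and Cx30-/- libraries, 1 point per library, ordered by mean level. *Vwf*, *Anxa2*, *Plat* and *Thbd* lie at the top, *F8* lies apart at the bottom (4.46 to 6.84 per kb), and the square of C57BL6-BALB/c WT is the lowest of the 3 points for every gene except *F8*.

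*Vwf* (ENSMUSG00000001930, chr6:125546774-125686679 on GRCm38, plus strand, 52 exons in the transcript used) had normalised counts of 19933 in C57BL6 WT, 14607 in C57BL6-BALB/c WT and 27912 in Cx30-/-. The Cx30-/- library was the highest of the 3, by a log2 ratio of 0.49 (interval 0.46 to 0.51) over C57BL6 WT and 0.93 (0.90 to 0.96) over C57BL6-BALB/c WT. The WT libraries themselves differed by -0.45 (-0.48 to -0.42), C57BL6-BALB/c WT over C57BL6 WT. All 11 annotated transcripts of *Vwf* pointed the same way, with log2 ratios of 0.41 to 0.72 over C57BL6 WT and 0.73 to 1.15 over C57BL6-BALB/c WT. A read in an exon that several transcripts share was counted for each, so these transcripts are not independent measurements. Megakaryocytes and platelets also make *Vwf*, and platelet markers were highest in the same library. The 9 genes of the platelet list summed to normalised counts of 727 in C57BL6 WT, 549 in C57BL6-BALB/c WT and 1263 in Cx30-/-, and none of the 9 was at 0 in any library. *Pf4*, a chemokine of platelet granules, stood at 130.1, 85.3 and 207 in the same order, far below *Vwf*. The part of platelets in the *Vwf* values was not tested.

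*F8* (ENSMUSG00000031196, chrX:75172715-75382615, minus strand, 26 exons), the cofactor that von Willebrand factor protects in blood, had raw counts of 50 in C57BL6 WT, 62 in C57BL6-BALB/c WT and 55 in Cx30-/-. These reads covered 18.1% to 22.8% of the transcript's bases, against at least 89.7% for each of the other 8 genes. The normalised counts were 43.7, 67.0 and 57.7 in that order, and both intervals of the Cx30-/- library held a ratio of 1 (log2 ratios of 0.40, interval -0.18 to 0.98, over C57BL6 WT and -0.21, interval -0.77 to 0.33, over C57BL6-BALB/c WT). A difference of the Cx30-/- library was therefore not detectable at this depth. Between the WT libraries *F8* was the only one of the 9 genes higher in C57BL6-BALB/c WT, by a log2 ratio of 0.62 (0.06 to 1.18). Per kb, *Vwf* exceeded *F8* by 506-fold in C57BL6 WT, 242-fold in C57BL6-BALB/c WT and 536-fold in Cx30-/-.

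*F3* (ENSMUSG00000028128, chr3:121723537-121735048, plus strand, 6 exons), the trigger of coagulation, did not move one way against the WT libraries. Its normalised counts were 1415.5 in C57BL6 WT, 1013 in C57BL6-BALB/c WT and 1182 in Cx30-/-, which put the Cx30-/- library between the other two. It was lower than C57BL6 WT by a log2 ratio of -0.26 (-0.37 to -0.15) and higher than C57BL6-BALB/c WT by 0.22 (0.10 to 0.35). *Tfpi* (ENSMUSG00000027082, chr2:84432855-84476775, minus strand, 8 exons), which inhibits the complex that *F3* starts, had normalised counts of 639 in C57BL6 WT, 546.5 in C57BL6-BALB/c WT and 776 in Cx30-/-. Here the Cx30-/- library was the highest, by log2 ratios of 0.28 (0.13 to 0.43) over C57BL6 WT and 0.51 (0.34 to 0.67) over C57BL6-BALB/c WT. All 10 annotated *Tfpi* transcripts were higher in Cx30-/- than in either WT library (0.28 to 0.38 and 0.38 to 0.66). Per kb, the ratio of *F3* to *Tfpi* was 4.90 in C57BL6 WT, 4.10 in C57BL6-BALB/c WT and 3.37 in Cx30-/-, the lowest of the 3. Astrocyte markers, of which none was at 0 in any library, summed to 44155 in C57BL6 WT, 42641 in C57BL6-BALB/c WT and 36296 in Cx30-/-. The 8 markers were split, with 3 higher and 5 lower in Cx30-/- than in C57BL6 WT. Over C57BL6-BALB/c WT, 4 were higher and 4 lower. The part of astrocytes in the *F3* values was not tested.

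The 3 genes of the protein C system were each highest in the Cx30-/- library, to different degrees. *Thbd* (ENSMUSG00000074743, chr2:148404466-148408188, minus strand, a gene of 1 exon) was the most even of the 9 genes, with normalised counts of 6144 in C57BL6 WT, 5948 in C57BL6-BALB/c WT and 6768 in Cx30-/-. Its log2 ratios in Cx30-/- were 0.14 (0.09 to 0.19) over C57BL6 WT and 0.19 (0.13 to 0.24) over C57BL6-BALB/c WT, and the interval between the WT libraries held a ratio of 1 (-0.05, interval -0.10 to 0.00). The highest of its 3 libraries was 1.14-fold over the lowest, against 2.32-fold for *Plat*, the gene with the widest range. *Procr* (ENSMUSG00000027611, chr2:155751117-155755471, plus strand, 3 exons) had normalised counts of 399.9 in C57BL6 WT, 261 in C57BL6-BALB/c WT and 451 in Cx30-/-. C57BL6 WT and Cx30-/- did not differ beyond the sampling of reads (log2 ratio 0.17, interval -0.02 to 0.37), and C57BL6-BALB/c WT stood below both, with Cx30-/- higher by 0.79 (0.56 to 1.02). The *Procr* transcript with the largest total is annotated as non-coding, but the full-length coding one held nearly the same reads (463, 242 and 423 raw counts, against 458, 242 and 430). The reads of *Procr* and *Thbd* thus did not keep one proportion: per kb, *Thbd* exceeded *Procr* by 6.64-fold in C57BL6 WT, 9.83-fold in C57BL6-BALB/c WT and 6.48-fold in Cx30-/-.

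*Pros1* (ENSMUSG00000022912, chr16:62854307-62929346, plus strand, 15 exons), the cofactor of activated protein C, had normalised counts of 2156 in C57BL6 WT, 1579 in C57BL6-BALB/c WT and 2652 in Cx30-/-. The Cx30-/- library exceeded C57BL6 WT by a log2 ratio of 0.30 (0.22 to 0.38) and C57BL6-BALB/c WT by 0.75 (0.66 to 0.84), and C57BL6-BALB/c WT was lower than C57BL6 WT (-0.45, interval -0.54 to -0.36). *Gas6*, a relative of protein S that binds TAM receptors, was more abundant per kb than any of the 9 genes, with a mean of 3361 per kb, and had normalised counts of 9013 in C57BL6 WT, 7371 in C57BL6-BALB/c WT and 9670 in Cx30-/-. The libraries had the same order for both genes, with smaller differences for *Gas6* (log2 ratios of 0.10 and 0.39 in Cx30-/- over the C57BL6 WT and C57BL6-BALB/c WT libraries).

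*Plat* (ENSMUSG00000031538, chr8:22757727-22782844, plus strand, 14 exons) was the gene of the 9 that set the WT libraries furthest apart. Its normalised counts were 6842.5 in C57BL6 WT, 2952 in C57BL6-BALB/c WT and 5637 in Cx30-/-. C57BL6-BALB/c WT was 2.32-fold lower than C57BL6 WT (log2 ratio -1.21, interval -1.28 to -1.15; -0.55 with counts scaled to endothelial markers), and 1.09% of all genes compared had a lower log2 ratio. The Cx30-/- library lay between them, lower than C57BL6 WT by a log2 ratio of -0.28 (-0.33 to -0.23) and higher than C57BL6-BALB/c WT by 0.93 (0.87 to 1.00). No transcript other than the one used is listed for *Plat*. *Plau*, the urokinase-type activator, had normalised counts of 221 in C57BL6 WT, 465.5 in C57BL6-BALB/c WT and 169 in Cx30-/-, and was thus highest in the library in which *Plat* was lowest. Per kb, *Plat* exceeded *Plau* by 28.4-fold in C57BL6 WT, 5.80-fold in C57BL6-BALB/c WT and 30.5-fold in Cx30-/-.

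*Anxa2* (ENSMUSG00000032231, chr9:69453620-69491795, plus strand, 13 exons) had normalised counts of 3004 in C57BL6 WT, 2418 in C57BL6-BALB/c WT and 3562 in Cx30-/-. The Cx30-/- library was higher by log2 ratios of 0.25 (0.18 to 0.31) over C57BL6 WT and 0.56 (0.48 to 0.64) over C57BL6-BALB/c WT, and all 6 annotated transcripts were higher in it (0.13 to 0.29 and 0.36 to 0.64). *S100a10*, whose product forms a complex with annexin A2, had normalised counts of 554 in C57BL6 WT, 385 in C57BL6-BALB/c WT and 620.0 in Cx30-/-, the same order. Per kb, *Anxa2* exceeded *S100a10* by 2.57-fold, 2.98-fold and 2.72-fold, the narrowest spread of the 5 gene pairs formed.

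**Figure D2:**
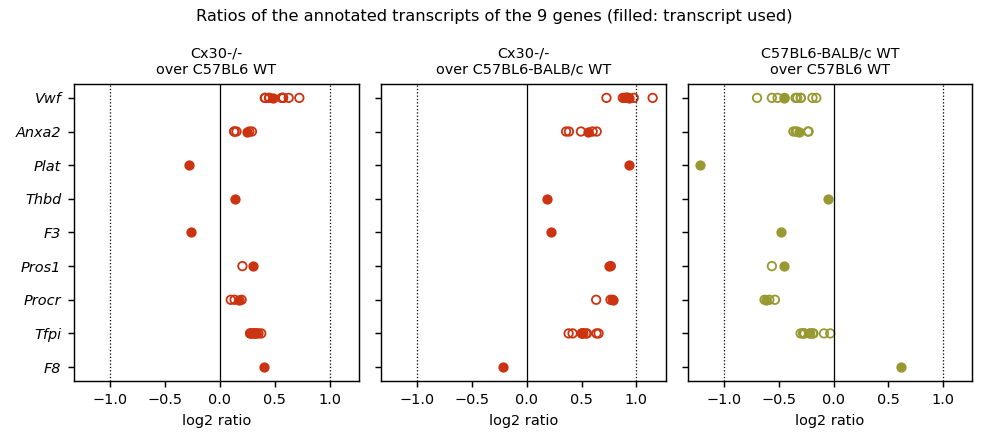
The log2 ratio of each annotated transcript of the 9 genes with at least 50 raw counts in every library, in the 3 comparisons (Cx30-/- over C57BL6 WT, Cx30-/- over C57BL6-BALB/c WT, C57BL6-BALB/c WT over C57BL6 WT). Filled circles are the transcript used for the gene, open circles its other transcripts, and dotted lines a 2-fold difference. Transcripts of 1 gene lie on the same side of 0 in each comparison, for *Vwf* at 0.41 to 0.72 over C57BL6 WT.

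Promoter sequences from RefSeq (GRCm38.p6, 250 bases before to 50 bases after a start site, 5′ to 3′ on the strand of the gene) were matched to 6 of the 9 genes, *F3*, *F8*, *Procr*, *Pros1*, *Tfpi* and *Anxa2*. *Vwf*, *Thbd* and *Plat* had no entry. Promoters of 4 genes are shown, that of *F3*, which lay between the WT libraries in Cx30-/-, and those of *Anxa2*, *Pros1* and *Procr*, which were highest in Cx30-/-. They lie at chr3:121723287-121723586 (*F3*), chr9:69453433-69453732 (*Anxa2*), chr16:62854057-62854356 (*Pros1*) and chr2:155750967-155751266 (*Procr*), each on the plus strand. The RefSeq start is that of the transcript used for *F3* and *Pros1*, and lies 63 bases inside it for *Anxa2* and at position -127 from it for *Procr*. Capitals mark matches on either strand to 7 motifs searched, the TATA box TATAAA, the GC box GGGCGG, the KLF core CACCC, the GATA core AGATAA, the ETS core CCGGAA, the AP-1 motif TGANTCA and the E-box CACGTG.
F3: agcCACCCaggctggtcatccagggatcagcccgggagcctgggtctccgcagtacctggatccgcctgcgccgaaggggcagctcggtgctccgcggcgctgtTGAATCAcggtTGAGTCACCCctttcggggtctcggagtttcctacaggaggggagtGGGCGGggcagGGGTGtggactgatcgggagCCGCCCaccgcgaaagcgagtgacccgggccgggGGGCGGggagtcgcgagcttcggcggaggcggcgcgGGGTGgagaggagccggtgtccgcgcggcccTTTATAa
Anxa2: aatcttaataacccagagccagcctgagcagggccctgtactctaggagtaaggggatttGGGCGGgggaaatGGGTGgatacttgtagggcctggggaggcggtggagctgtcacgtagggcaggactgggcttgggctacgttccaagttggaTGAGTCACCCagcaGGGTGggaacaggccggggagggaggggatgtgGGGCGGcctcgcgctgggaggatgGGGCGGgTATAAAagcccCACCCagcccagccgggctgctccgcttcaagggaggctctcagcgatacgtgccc
Pros1: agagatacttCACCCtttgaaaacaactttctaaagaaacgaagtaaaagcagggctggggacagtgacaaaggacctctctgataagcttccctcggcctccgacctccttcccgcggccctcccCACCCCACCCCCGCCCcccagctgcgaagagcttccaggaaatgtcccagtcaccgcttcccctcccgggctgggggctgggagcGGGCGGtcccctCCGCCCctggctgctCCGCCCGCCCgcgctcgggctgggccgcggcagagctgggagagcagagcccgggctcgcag
Procr: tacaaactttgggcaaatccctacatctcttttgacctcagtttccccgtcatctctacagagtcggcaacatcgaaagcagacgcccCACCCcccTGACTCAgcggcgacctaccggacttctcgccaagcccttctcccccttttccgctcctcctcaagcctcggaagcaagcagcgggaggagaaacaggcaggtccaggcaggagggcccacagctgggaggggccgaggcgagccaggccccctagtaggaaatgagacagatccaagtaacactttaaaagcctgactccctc
Of 32544 promoters of the same length, 35.9% held a GC box, 57.7% a KLF core, 7.79% an AP-1 motif, 13.6% a TATA box, 11.2% a GATA core, 14.98% an ETS core and 7.17% the E-box. *F3* held 3 GC boxes and 2 AP-1 motifs, at -146 and -135 counted from 0 at the start site, *Anxa2* 3 GC boxes, 1 AP-1 motif at -95 and a TATA box at -17, *Pros1* 5 GC boxes and no AP-1 motif, and *Procr* 1 AP-1 motif at -154 and no GC box. KLF cores numbered 4 in *F3*, 4 in *Anxa2*, 3 in *Pros1* and 1 in *Procr*, and *F3* held a TATA box on the other strand at 43. In *F3* and *Anxa2* an AP-1 motif overlaps a KLF core. *Pros1* and *Procr* thus shared no motif of the 7 other than the KLF core, which 57.7% of all promoters held. *Tfpi*, also highest in Cx30-/-, held GC boxes and KLF cores among other motifs in its promoters, which are not shown. The GC content was 70.3% for *F3*, 66.7% for *Pros1*, 63.7% for *Anxa2* and 58.3% for *Procr*, against a median of 53.0% (quartiles 46.0% and 61.7%) over all promoters. A match is a description of these letters and not evidence of binding.

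Set side by side, 7 of the 9 genes were higher and 2 (*Plat* and *F3*) lower in Cx30-/- than in C57BL6 WT. None was 2-fold higher (1.42% of 14768 genes were) or 2-fold lower (1.25%). The read-sampling interval lay above a ratio of 1 for 5 of the 9 genes, against 25.7% of all genes, and below it for 2, a share close to the 28.3% of all genes. Against C57BL6-BALB/c WT, 8 genes were higher in Cx30-/- and 1 (*F8*) lower. None reached 2-fold higher (3.95% of 14883 genes did) or lower (4.74%), although *Vwf* and *Plat* came close at 1.91-fold each. The interval lay above 1 for 8 of the 9 genes, against 35.6% of all genes, and below it for none, against 36.2%. These comparisons share the Cx30-/- library. In all, 6 genes (*Vwf*, *Thbd*, *Procr*, *Tfpi*, *Anxa2* and *Pros1*) were higher in Cx30-/- than in both WT libraries, against 37.1% of 14680 genes. Both intervals lay above 1 for 5 of them, *Procr* being the exception, against 18.6% of all genes.

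**Figure D3:**
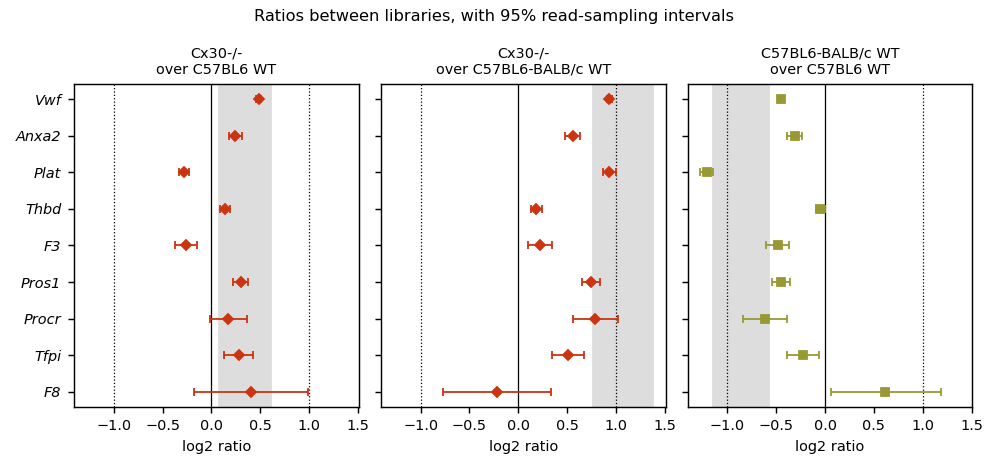
The log2 ratio of each gene with its 95% read-sampling interval, in Cx30-/- over C57BL6 WT, Cx30-/- over C57BL6-BALB/c WT and C57BL6-BALB/c WT over C57BL6 WT. Dotted lines mark a 2-fold difference and grey bands the range of the 14 endothelial markers. Only *Plat* between the WT libraries lies past a dotted line, and in the right panel 8 of the 9 genes lie left of 0.

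The WT libraries also differed from each other. In C57BL6-BALB/c WT, 8 of the 9 genes were lower than in C57BL6 WT and *F8* was higher. The interval lay below a ratio of 1 for 7 genes, against 31.2% of all genes, and above it for 1, against 33.2%. *Plat* was the only gene past 2-fold, where 2.02% of 14783 genes were 2-fold lower and 1.41% were 2-fold higher. The median log2 ratio of the 9 genes was -0.45, against 0.00 for all genes. In Cx30-/- it was 0.25 over C57BL6 WT and 0.56 over C57BL6-BALB/c WT, where the medians of all genes were -0.005 and 0.004.

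The test across genes compared the Cx30-/- library with both WT libraries as 1 group, so that the spread was the difference between the WT libraries, background included. With edgeR's quasi-likelihood test, none of the 9 genes passed an adjusted p of 0.05, and 9 of 17565 genes (0.0512%) did. The lowest adjusted p among the 9 was 0.693 for *Pros1* (log2 fold change 0.51), followed by 0.767 for *Vwf* (0.70). DESeq2 gave log2 fold changes close to these, 0.51 for *Pros1* and 0.69 for *Vwf*. With 1 residual degree of freedom, a value that misses the threshold does not show that the genes did not differ.

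The 9 genes were next read against markers of the cells in the preparation. Pericyte markers (8 genes) summed to normalised counts of 70414 in C57BL6 WT, 45608 in C57BL6-BALB/c WT and 76757 in Cx30-/-. The sums had the same order of the libraries as 6 of the 9 genes, and so did the endothelial and platelet sums given above. Fibroblast markers (7 genes) had this order too, with sums of 11679, 10079 and 13986. Of these 7, 6 were higher and 1 lower in Cx30-/- than in C57BL6 WT, and all were higher than in C57BL6-BALB/c WT. The sums of the arterial, venous and capillary endothelial lists also had it, so the order was not particular to 1 cell type. The pericyte markers did not all share it. In Cx30-/-, 5 were higher and 3 lower than in C57BL6 WT, and 7 were higher and 1 lower than in C57BL6-BALB/c WT. Smooth muscle markers (7 genes) were lowest in C57BL6 WT, with sums of 45199, 63507 and 58589 in the same order of libraries. Neuron markers (8 genes) were lowest in Cx30-/-, with sums of 39336, 47919 and 27052. None of these markers was at 0 in any library, and their part in the values of the 9 genes was not tested. All 14 endothelial markers were higher in Cx30-/- than in both WT libraries, with a median log2 ratio of 0.22 (range 0.08 to 0.61) over C57BL6 WT and 0.87 (0.77 to 1.38) over C57BL6-BALB/c WT. Over C57BL6 WT, 7 of the 9 genes lay inside the range of these markers, and *Plat* and *F3* lay below it. Over C57BL6-BALB/c WT, *Vwf*, *Procr* and *Plat* lay inside and the other 6 below, the furthest being *F8*, *Thbd* and *F3*. Between the WT libraries the markers had a median of -0.69 (-1.14 to -0.58). *Procr* lay inside this range, *Plat* was lower still, and the other 7 genes were above it. With counts scaled to the endothelial markers, *Vwf* had the highest log2 ratio of the 9 genes in Cx30-/- over C57BL6 WT (0.27), and over C57BL6-BALB/c WT its log2 ratio was 0.06. On that scale *Thbd* became lower in Cx30-/-, by -0.07 and -0.69, and *Plat* was -0.49 over C57BL6 WT and 0.05 over C57BL6-BALB/c WT.

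Markers of blood cells moved with the same library. The erythroid list summed to normalised counts of 7732 in C57BL6 WT, 4359 in C57BL6-BALB/c WT and 18510 in Cx30-/-, with all 7 of its genes detected in every library. The neutrophil list summed to 604, 594 and 1720.5 in the same order, with *Ly6g* at 0 in C57BL6 WT. Of the platelet list, 7 genes passed the minimum in the comparisons with Cx30-/- and all 7 were higher in it, with a median log2 ratio of 0.85 over C57BL6 WT and 1.28 over C57BL6-BALB/c WT. Choroid plexus markers were highest in C57BL6 WT, with sums of 147162 in C57BL6 WT, 57286 in C57BL6-BALB/c WT and 77518 in Cx30-/-. By summed counts C57BL6-BALB/c WT was the lowest library for each of these lists, as it was for 8 of the 9 genes. For the neutrophil list this was narrow, with a log2 ratio of the sums of -0.025 over C57BL6 WT. Of its genes past the minimum, 2 were higher and 3 lower in C57BL6-BALB/c WT than in C57BL6 WT. The platelet genes past the minimum also split into 2 higher and 3 lower. The part of blood and choroid plexus cells in the values of the 9 genes was not tested. Of the hepatocyte list, *Alb*, *Apob*, *Cyp3a11* and *Serpina1a* were each at 0 in at least 1 library.

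**Figure D4:**
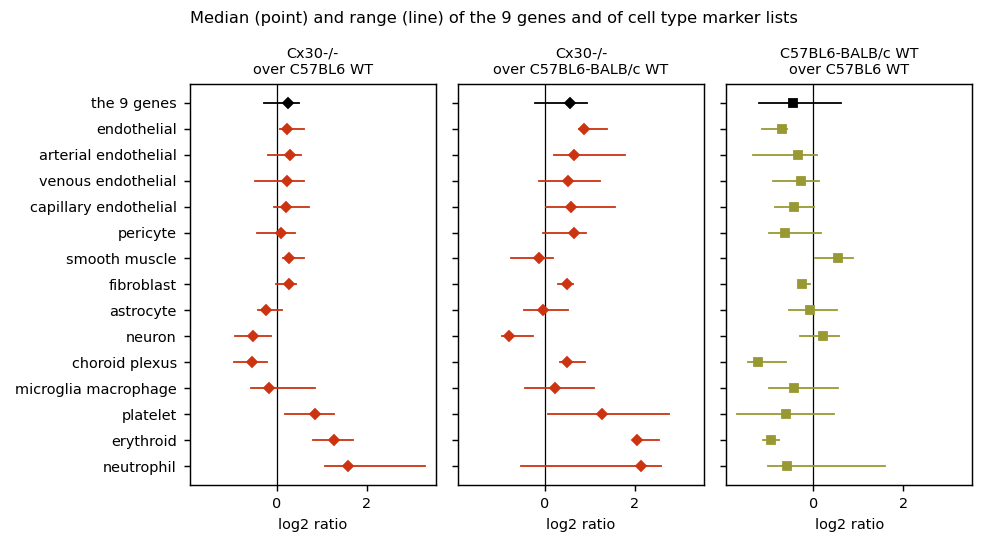
Median (point) and lowest to highest value (line) of the log2 ratio over the genes of each list past the count minimum, for the 9 coagulation and fibrinolysis genes (black) and for marker lists of cell types, in the 3 comparisons. The platelet, erythroid and neutrophil medians lie to the right of the 9 genes in both comparisons of Cx30-/-, at 0.85, 1.28 and 1.57 over C57BL6 WT, and the 9 genes lie close to the endothelial list over C57BL6 WT (0.25 and 0.22).

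Of 51 other genes of haemostasis listed by role, 49 were in the files and 28 passed the count minimum. *Proc* and *Selp* were not analysed here. Of these 28, 19 were higher and 9 lower in Cx30-/- than in C57BL6 WT (median log2 ratio 0.14), where 49.3% of all genes were higher. None was past 2-fold, against 1.42% of all genes higher and 1.25% lower. Over C57BL6-BALB/c WT, 20 were higher and 8 lower (median 0.37), where 50.3% of all genes were higher. Past 2-fold were 1 gene higher and 1 lower, against 3.95% and 4.74% of all genes. Between the WT libraries, 1 was past 2-fold higher in C57BL6-BALB/c WT and none 2-fold lower (median -0.13), against 1.41% and 2.02% of all genes.

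Most of the coagulation factors that circulate in plasma, which the liver makes, were at 0 or under the count minimum. Of 14 procoagulant genes, 11 did not pass the minimum, and the fibrinogen chains *Fga*, *Fgb* and *Fgg* and the kininogen *Kng1* had no read in any library. The 3 that passed were *F5*, *F13a1* and *Klkb1*. *F5*, the cofactor of factor Xa, had normalised counts of 1359.6 in C57BL6 WT, 746 in C57BL6-BALB/c WT and 1345 in Cx30-/-, so that the C57BL6 WT and Cx30-/- libraries did not differ beyond the sampling of reads (log2 ratio -0.02, interval -0.12 to 0.09). *F13a1*, the fibrin cross-linking enzyme, which platelets and macrophages also hold, had 475 in C57BL6 WT, 321 in C57BL6-BALB/c WT and 748 in Cx30-/-. It was past 2-fold in Cx30-/- over C57BL6-BALB/c WT (1.22, interval 1.02 to 1.42) and not over C57BL6 WT (0.66, interval 0.49 to 0.82). Scaled to the endothelial markers, the first of these log2 ratios was 0.34, under 2-fold.

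Among 12 anticoagulant genes, 7 passed the minimum and none was past 2-fold in any comparison. In Cx30-/-, 6 of the 7 were higher than in C57BL6 WT and 5 were higher than in C57BL6-BALB/c WT, with median log2 ratios of 0.29 and 0.39. Of all genes, 49.3% and 50.3% were higher in these comparisons. *Gas6* and *Anxa5*, an annexin that covers phosphatidylserine, had the highest levels of this list. *Anxa5* had normalised counts of 3091 in C57BL6 WT, 2329.8 in C57BL6-BALB/c WT and 3787 in Cx30-/-, the same order as *Anxa2*. Of 11 fibrinolysis genes, 7 passed. Beside the same shares of all genes, 5 of these 7 were higher and 2 lower in Cx30-/- than in C57BL6 WT. Over C57BL6-BALB/c WT, 4 were higher and 3 lower. The one past 2-fold was *Plau*, lower in Cx30-/- than in C57BL6-BALB/c WT by a log2 ratio of -1.46 (-1.73 to -1.20). Between the WT libraries it was higher in C57BL6-BALB/c WT by 1.08 (0.85 to 1.31), a log2 ratio that was under 2-fold, at 0.95, with total counts as the scale and 0.999 with the authors' library total. *Serpine2*, the protease nexin that inhibits thrombin and plasminogen activators, had the highest level of the list (1759 per kb), and its log2 ratios in Cx30-/- were 0.06 over C57BL6 WT and -0.07 over C57BL6-BALB/c WT.

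Of 4 genes for thrombin receptors, 3 passed the minimum. *F2r*, encoding the receptor PAR1, had normalised counts of 491 in C57BL6 WT, 663 in C57BL6-BALB/c WT and 868 in Cx30-/-, and exceeded both WT libraries in Cx30-/- (0.82, interval 0.67 to 0.98, and 0.39, interval 0.24 to 0.54). Unlike 8 of the 9 vessel genes it was lower in C57BL6 WT than in C57BL6-BALB/c WT. *F2rl1*, encoding PAR2, had intervals that held a ratio of 1 in both comparisons of Cx30-/-. Of 10 genes for the storage, secretion and processing of these proteins, 8 passed and none was past 2-fold. *Mcfd2*, whose product takes part in the export of factors V and VIII from the endoplasmic reticulum, was lower in Cx30-/- than in C57BL6 WT (-0.19, interval -0.27 to -0.11) and higher than in C57BL6-BALB/c WT (0.21, interval 0.12 to 0.30). *Vkorc1*, which recycles the vitamin K that protein S needs, had normalised counts of 580 in C57BL6 WT, 419 in C57BL6-BALB/c WT and 549 in Cx30-/-. For it, C57BL6 WT and Cx30-/- did not differ beyond the sampling of reads (log2 ratio -0.08, interval -0.25 to 0.09).

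**Figure D5:**
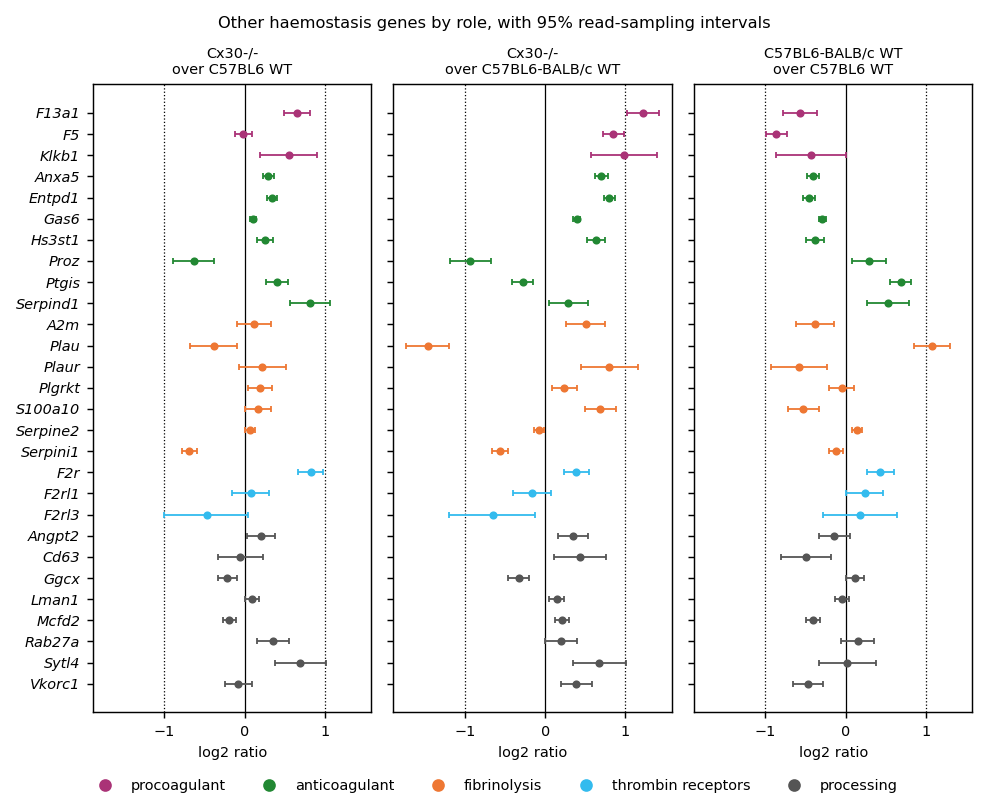
The log2 ratio of the 28 other haemostasis genes past the count minimum, with 95% read-sampling intervals, coloured by role, in the 3 comparisons of the libraries (dotted lines, 2-fold). No gene lies past a dotted line in Cx30-/- over C57BL6 WT, and *F13a1* (1.22) and *Plau* (-1.46) lie past one in Cx30-/- over C57BL6-BALB/c WT.

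For each of the 9 genes, the genes with the most similar pair of log2 ratios in Cx30-/- over the WT libraries were looked up among 7851 genes with at least 500 normalised counts in every library. This is a description over 3 libraries. Nearest to *Vwf* were *Xdh*, *Golim4* and *Igfbp3*, at distances of 0.0078 to 0.035 on the log2 scale. Nearest to *Procr* was *Cd93*, an endothelial surface protein, at 0.013, followed by *Aldh2* and *Capns1*. *Tfpi* was nearest to *Wasf2*, *Irf2bp1* and the tight junction gene *Tjp1*, *Anxa2* to *Orai3*, *Axl* and *Bckdha*, *Pros1* to *Rassf1*, *Ech1* and *Mtus1*, and *Thbd* to *Ezh1*, *Sucla2* and *Cul7*. *F3* was nearest to *Lcat*, *Apmap* and *Ctsb*, and *F8* to *Ccdc39*, *Flna* and *Rasa4*. *Plat* stood most apart, with *Bst2*, its nearest gene, at a distance of 0.126 and *Lgals3bp* at 0.141.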

How the data were processed

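RNA of isolated brain vessels was sequenced as 50-base single reads from non-stranded polyA libraries on 1 lane, 1 library per group, so antisense reads could not be separated. The authors aligned reads with Bowtie, dropped those with more than 1 match, and deposited raw counts of exon-overlapping alignments for 82813 Ensembl transcripts, without normalization. A second deposited column gives the count as a fraction of a library total (20654144 to 24830975), whose meaning is not given, beside each transcript's length and uncovered bases. CASAVA 1.8.2 and mm10 stand in the submitters' processing notes.

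Transcripts were named by identifier in GENCODE M21 (69375, 83.8%). Of 41 transcripts of the 9 genes, 0 had the files' start position there, so coordinates come from GENCODE M21 (GRCm38). Each gene took the transcript with the largest total count. Normalization used size factors (median of ratios). Ratios have exact binomial (Clopper-Pearson) 95% intervals (scipy 1.17.1), which cover counting error only. At this depth, 3 counts equal 2.62 to 3.24 normalised counts. A gene was called at a ratio of at least 2 with at least 50 normalised counts in the higher library. edgeR 4.0.16 in R 4.3.3 compared Cx30-/- with both WT libraries by its quasi-likelihood test, with TMM factors, the filterByExpr filter and p-values adjusted over all genes by Benjamini-Hochberg. This step was tested on simulated data with changes far larger than those of the 9 genes and a smaller spread between libraries. That run does not show whether differences of the size seen here would be found. DESeq2 1.42.0 and other scalings, row choices, minimums and thresholds were alternatives.

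The 9 genes and all lists were chosen with earlier results of these data known. Named are the 9 genes, the listed haemostasis genes past the call rule, the 2 per role with the most counts per kb, and the 3 nearest genes of each of the 9. One listed haemostasis gene and one nearest gene are not reported here.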

Additional observations from a re-analysis of the deposited data

How the results depend on the processing

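All 27 log2 ratios of the 9 genes (3 comparisons) kept their sign under the other scalings (TMM, total count, the authors' library total, upper quartile), a pseudocount of 1 and other choices of transcript. Scaling to the endothelial markers shifted all ratios by -0.21, -0.88 and 0.67 in Cx30-/- over C57BL6 WT, Cx30-/- over C57BL6-BALB/c WT and C57BL6-BALB/c WT over C57BL6 WT, and 15 of the 27 changed sign, the cause being this shift. Under it *F8* was past 2-fold lower in Cx30-/- than in C57BL6-BALB/c WT (1 gene, -1.09) and past 2-fold higher between the WT libraries (1 gene, 1.29), and the number past 2-fold lower there became 0, *Plat* being at -0.55. Total count shifted all genes by 0.13 in Cx30-/- over C57BL6-BALB/c WT, and the authors' total by 0.08. With either, 2 genes, *Vwf* and *Plat*, were past 2-fold higher. The shares of all genes past 2-fold were not computed under these scalings or the endothelial one. These counts of genes therefore have no background beside them. With a ratio of 1.5 in place of 2, 4 genes were higher in Cx30-/- than in C57BL6-BALB/c WT (14.1% of all genes were), and between the WT libraries 1 was higher (7.34%) and 2 were lower (8.04%) in C57BL6-BALB/c WT. The count of 0 genes called by edgeR was 0 under each alternative. Leaving out a WT library left 1 library against 1, a value with no test, which is the ratio over the other WT library given above. *F8*, at 50 to 62 raw counts, is the gene whose depth limits what can be seen.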
